A study of Mus musculus with 8 samples.

Results

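The collagen genes are the genes that encode the alpha chains of the collagens, the main structural proteins of the extracellular matrix. They were taken as every probe whose gene symbol is Col followed by a number, the letter a and a number, which gave 37 of 16593 named genes, and 59 of the 25697 probes, of the Illumina MouseRef-8 v2 array. The arrays held total RNA from colon of C57BL/6 mice, hybridized with a Cy3 label. The 4 groups of 2 arrays each were normal colon of wild-type mice, normal colon of caspase-12 deficient mice, colon tumors of wild-type mice and colon tumors of caspase-12 deficient mice. Caspase-12 is an inflammatory caspase, and the study asked how colon tumors and normal colon of these genotypes compare. The kind of caspase-12 allele, the way the tumors arose, the age of the mice and the number of mice behind an array were not stated in the labels. Replicates are not said to come from separate mice, so a p-value here reflects the spread between arrays, and that spread may be technical.

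Collagen chains wind into triple helices, and the kind of chain sets where the helix goes. Fibrillar chains (types I, II, III, V, XI, XXIV and XXVII) assemble into the cross-banded fibrils of the stroma, which in the gut are made mainly by fibroblasts and smooth muscle cells. Basement membrane chains (type IV, with the associated types XV and XVIII) form the sheet under epithelium and around vessels, muscle and nerve. Type XVII is a transmembrane collagen of the hemidesmosome, the rivet that holds basal cells of stratified epithelium to the basement membrane, and type VII forms the anchoring fibrils below it. The single-layered epithelium of the colon has a simpler form of hemidesmosome.

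Signals were measured as normalized log2 intensities, and a detection p-value under 0.01 was the limit for calling a probe above background. Of the 59 collagen probes, 24 probes for 19 genes were above background on at least 2 of the 8 arrays and were tested, 33 probes were above background on no array, and 2 probes on 1 array. The tested probes covered 5 of 11 fibrillar genes, 5 of 8 basement membrane genes, both genes of the hemidesmosomal and anchoring types, 2 of 3 beaded filament genes (type VI), 3 of 6 fibril-associated genes, 1 of 3 other transmembrane genes (Col23a1), 1 of 2 remaining genes (Col28a1) and none of 2 short-chain genes. The 18 genes without a tested probe were Col2a1, Col5a2, Col5a3, Col11a1, Col24a1 and Col27a1 among the fibrillar genes, Col4a3, Col4a4 and Col4a6 of the basement membrane, Col6a6, Col9a1, Col9a3, Col19a1, Col8a2, Col10a1, Col13a1, Col25a1 and Col26a1. A group below background on all its arrays at a probe has only an upper limit there, so a change against it is given as "at least". A log2 difference printed beside such a fold is the difference of normalized means that the fit tested and is no measured size. In whole-tissue RNA, more cells of a type and more RNA per cell cannot be told apart.

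The arrays had mean intensities of 1112.5 to 1181.52 and between 43.7% and 49.1% of probes above background. With 2 arrays per group, their number limits the precision. The Casp12 probe was above background on 2 arrays, both of the deficient genotype, and since its place relative to the altered part of the gene is not given, it does not check the genotype labels. Replicates differed more in tumors (SD of the log2 difference 0.709 in wild-type and 0.762 in deficient tumors) than in normal colon (0.475 and 0.480). Of 9 tested colon epithelium markers, the summed intensity was 193306 to 224316 in normal colon and 201132 to 207604 in wild-type tumors, against 134979 and 143346 in deficient tumors. Squamous epithelium markers (12 tested of 14) summed to between 1101.93 and 2933.23 in normal colon, to 82055.1 on array 1 and 1482.04 on array 2 of wild-type tumors, and to 61549.7 and 159930 in deficient tumors. Skeletal muscle markers (10 tested of 12) summed to 150977 on array 1 of the deficient tumors, against 977.224 to 6390.61 on the other 7 arrays. The pair of wild-type tumor arrays and the pair of deficient tumor arrays thus each held samples that stood apart from each other.

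Upstream sequences are shown for genes on which the results turn, from RefSeq with the GRCm38.p6 build, 5′ to 3′ on the coding strand and ending at the base before the annotated start of the gene. RefSeq promoter windows were found for 17 of the 19 tested genes. They were searched on both strands for CCAAT (the CCAAT box), GGGCGG (the GC box), TATAAA (the TATA box) and TGANTCA (the AP-1 element), and capitals mark each match, a match on the other strand appearing as its reverse complement. For the hemidesmosomal and anchoring genes and for the fibrillar gene Col1a2, the whole 250 bases upstream are given, from chr19:47692043-47692292 (minus strand), chr9:108953336-108953585 (plus strand) and chr6:4505368-4505617 (plus strand).
Col17a1: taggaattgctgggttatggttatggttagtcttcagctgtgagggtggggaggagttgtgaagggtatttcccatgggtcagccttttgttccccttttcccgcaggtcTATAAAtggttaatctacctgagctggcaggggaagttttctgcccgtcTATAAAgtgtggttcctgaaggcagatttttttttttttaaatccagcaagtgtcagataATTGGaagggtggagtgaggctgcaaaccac
Col7a1: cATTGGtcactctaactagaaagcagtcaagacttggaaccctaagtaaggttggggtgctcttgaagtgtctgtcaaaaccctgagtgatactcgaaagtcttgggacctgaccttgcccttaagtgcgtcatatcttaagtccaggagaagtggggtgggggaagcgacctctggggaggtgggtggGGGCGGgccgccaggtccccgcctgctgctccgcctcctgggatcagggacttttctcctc
Col1a2: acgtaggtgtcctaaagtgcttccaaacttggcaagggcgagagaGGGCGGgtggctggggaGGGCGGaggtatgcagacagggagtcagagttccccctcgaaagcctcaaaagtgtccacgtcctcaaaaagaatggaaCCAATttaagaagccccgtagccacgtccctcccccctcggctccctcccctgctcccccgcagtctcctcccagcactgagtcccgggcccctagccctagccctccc
The Col17a1 window held a pair of TATAAA matches and the other windows shown here none, whereas the Col7a1 and Col1a2 windows held GGGCGG. Of 32851 upstream windows of this length, 12.4% held TATAAA, 32.7% GGGCGG, 33.8% CCAAT and 6.75% TGANTCA. Among 19 windows of tested collagen genes (some genes have more than 1 start) the counts were 3, 12, 8 and 1. The TGANTCA match was in Col6a1. Such matches are a description of the letters and not of binding.

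Col4a1 and Col4a2, which encode the chains of the common type IV network, lie head to head on chromosome 8. Their annotated starts are 21 bases apart, each inside the other gene, and their promoter windows share 78 bases. The 30 bases around each gene's CCAAT match are shown because the upstream side of each gene is the start of the other, from chr8:11312954-11312983 (minus strand, 145 bases from the match to the start) and chr8:11312761-11312790 (plus strand, 32 bases).
Col4a1: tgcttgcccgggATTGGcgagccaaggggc
Col4a2: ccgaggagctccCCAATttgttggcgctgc

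In caspase-12 deficient mice, 3 basement membrane genes (Col4a1, Col4a2 and Col18a1), 2 fibrillar genes (Col1a1 and Col5a1), Col7a1 and Col16a1 were higher in tumors than in normal colon, and Col4a5 was lower. Of the 24 tested collagen probes, 8 rose and 1 fell at an adjusted p under 0.05, against 8.70% of all 13327 tested probes that rose and 10.7% that fell (37.5% of collagen probes and 19.4% of all probes in either direction). The 9 probes belong to 8 genes. The median log2 difference of the collagen probes was 1.14, and that of all tested probes was -0.02. With the 7 probes whose lower group was below background set at their bounds, the collagen median was 1.10. Col28a1, whose higher group was below background, has no bound and kept its fitted value. On 22 of the 24 probes the tumor and normal arrays did not overlap (18 higher, 4 lower), as on 63.8% of all tested probes (30.2% higher, 33.6% lower). By class the median log2 difference was 1.13 over 6 fibrillar probes, 1.77 over 6 basement membrane probes and 4.17 over 4 probes of Col7a1 and Col17a1, against 0.40 over 3 probes of type VI and 1.08 over 3 fibril-associated probes. With probes at their bounds the medians were 1.0002 for the fibrillar, 1.77 for the basement membrane, 3.03 for the Col7a1 and Col17a1 and 0.98 for the fibril-associated probes, so the value of 4.17 is not a measured size.

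**Figure D1:**
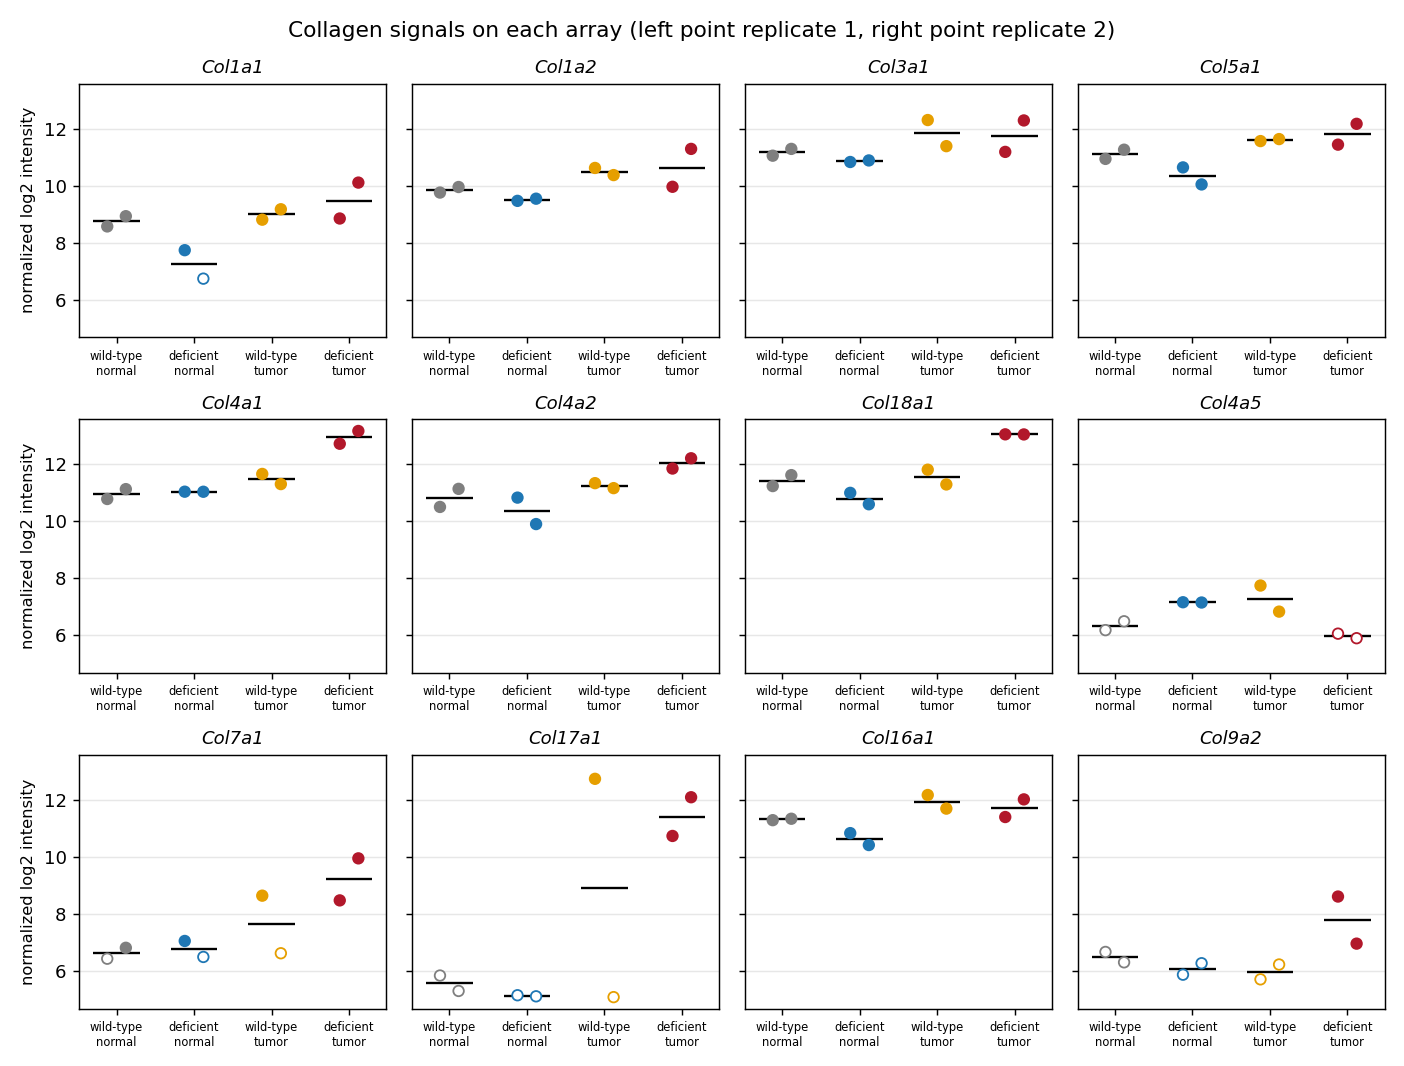
Normalized log2 intensity (vertical axis) of 12 collagen genes on each array of the 4 groups. Points are single arrays, open where the probe was below background on that array, and bars are group means of 2 arrays. Col4a1 and Col18a1 lay highest on both deficient tumor arrays, while Col17a1 was at 12.75 on array 1 of the wild-type tumors and 5.09 on array 2.

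Among the basement membrane genes 3 of 5 rose and 1 fell. Col18a1, whose type XVIII chain carries the endostatin fragment, read 11.002 and 10.60 in normal colon of deficient mice and 13.06 and 13.05 in their tumors, against 11.24 and 11.62 in the normal colon of wild-type mice and 11.82 and 11.30 in their tumors. Both deficient tumor arrays were above the other 6. The rise in deficient mice was 2.25 log2 units (SE 0.28, 4.77-fold, adjusted p = 0.00258), and the other Col18a1 probe rose by 1.88 (SE 0.32, adjusted p = 0.00823). That other probe was below background on array 2 of the deficient normal colon, and its call was lost without that array. Col4a1 read 11.04 on both deficient normal arrays and 12.73 and 13.17 in deficient tumors, against 10.79 and 11.13 in normal colon of wild-type mice and 11.67 and 11.31 in wild-type tumors. Its deficient tumor arrays again stood above all others, and the rise was 1.91 (SE 0.26, 3.75-fold, adjusted p = 0.00377).

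Col4a2, the partner chain of Col4a1, read 10.84 and 9.91 in deficient normal colon, 11.86 and 12.22 in deficient tumors, 10.51 and 11.14 in normal colon of wild-type mice and 11.34 and 11.17 in wild-type tumors. The groups of deficient mice did not overlap, and it rose by 1.67 (SE 0.36, adjusted p = 0.0195). Without array 2 of the deficient normal colon or array 2 of the deficient tumors the call was lost. Col15a1, the type XV chain, was not called (1.14, SE 0.36, adjusted p = 0.0622).

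Col4a5 went the other way. This X-linked chain belongs to the less common type IV networks, including that of smooth muscle basement membranes. It read 7.16 and 7.15 in deficient normal colon and 6.06 and 5.90 in deficient tumors, where it was below background on both arrays. It was also below background in wild-type normal colon (6.18 and 6.49) and above it in wild-type tumors (7.75 and 6.83). It fell at least 1.65-fold in deficient tumors (log2 difference -1.18, SE 0.32, adjusted p = 0.0400), a call lost under 11 of the 16 alternatives tried. Smooth muscle markers differed in the same comparison: none of 10 tested markers rose and 4 fell, against 8.70% of all probes that rose and 10.7% that fell. The summed intensity of these markers was 148762 and 151008 in deficient normal colon against 60853 and 110928 in deficient tumors. Their part in the Col4a5 result was not tested.

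Among the fibrillar genes 2 of 5 rose. Col1a1, the main chain of type I collagen, read 7.73 and 6.73 in deficient normal colon, the lower of these below background, and 8.84 and 10.10 in deficient tumors, against 8.57 and 8.93 in normal colon of wild-type mice and 8.80 and 9.17 in wild-type tumors. The deficient normal arrays were the lowest of the 8, so the rise of 2.24 (SE 0.48, 4.73-fold, adjusted p = 0.0177) spanned both a low normal colon and a high tumor array. Without array 2 of the deficient normal colon it was 1.62 and did not pass. Col5a1, a type V chain that starts type I fibrils, read 10.64 and 10.04 in deficient normal colon, 11.44 and 12.17 in deficient tumors, 10.94 and 11.26 in normal colon of wild-type mice and 11.56 and 11.63 in wild-type tumors. It rose by 1.46 (SE 0.32, adjusted p = 0.0202), and again without array 2 of the deficient normal colon or of the deficient tumors the call was lost.

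Col1a2 and Col3a1, the other abundant stromal chains, did not pass. Col1a2 read 9.46 and 9.54 in deficient normal colon, 9.96 and 11.29 in deficient tumors, 9.75 and 9.95 in normal colon of wild-type mice and 10.62 and 10.37 in wild-type tumors (deficient tumor difference 1.12, SE 0.40, adjusted p = 0.0924). Its arrays did not overlap between tumor and normal colon in either genotype. Col3a1 read 10.83 and 10.88 in deficient normal colon, 11.18 and 12.29 in deficient tumors, 11.05 and 11.29 in normal colon of wild-type mice and 12.30 and 11.38 in wild-type tumors (0.88, SE 0.42, adjusted p = 0.186). A dimmer Col3a1 probe, above background on 3 arrays and on none of the deficient normal arrays, gave at least 1.24-fold (adjusted p = 0.262). Col11a2, below background on both deficient tumor arrays, was at least 1.40-fold lower there than in normal colon and was not called (adjusted p = 0.0709).

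The hemidesmosomal and anchoring genes had the widest range. Col17a1 was below background on all 4 normal arrays (5.85 and 5.31 in wild-type mice, 5.16 and 5.12 in deficient mice) and read 10.75 and 12.11 in deficient tumors. In wild-type tumors it was 12.75 on array 1 and below background, at 5.09, on array 2. Deficient tumors were at least 24.5-fold above their normal colon, but with this spread between the wild-type tumor arrays, which enters the pooled error, the fitted difference of 6.29 (SE 2.02) did not pass (adjusted p = 0.0670). The other Col17a1 probes, both at 3 arrays above background, gave at least 12.2-fold (adjusted p = 0.0708) and at least 3.36-fold (adjusted p = 0.107). Leaving out either wild-type tumor array removes the spread between them from the pooled error, so such fits do not decide the call. Without array 1 of the wild-type tumors, the brightest probe also meets the filter for testing only through the deficient tumor arrays.

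Col7a1 read 7.06 and 6.50 in deficient normal colon and 8.49 and 9.96 in deficient tumors, 6.44 and 6.82 in wild-type normal colon, and 8.65 on array 1 against 6.63 on array 2 of the wild-type tumors. The Col7a1 readings of 6.50, 6.44 and 6.63 were below background. The same 3 tumor arrays were thus high for Col7a1 and Col17a1. Col7a1 rose by 2.44 in deficient tumors (SE 0.70, 5.44-fold, adjusted p = 0.0465), and lost the call under 8 of the 16 alternatives. With array 2 of the deficient normal colon below background, this size is not fully measured. Those 3 tumor arrays were also the ones with high squamous markers. Of 12 tested, 8 rose in deficient tumors and none fell, against 8.70% of all probes that rose and 10.7% that fell. Their median log2 difference was 4.55 with the 9 markers below background in deficient normal colon set at their bounds. Such markers met the filter for testing through other arrays, which can include the deficient tumors, so their p-values may depend on that choice. Lor rose by 7.12 (adjusted p = 0.000363) and Krt14 by 6.93 (adjusted p = 0.0373). Krtdap rose at least 103-fold (adjusted p = 0.00623) and Trp63, which encodes the basal-cell regulator p63, at least 25.4-fold (adjusted p = 0.0465), both from below background in deficient normal colon. The part of squamous cells in the Col7a1 and Col17a1 results was not tested.

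**Figure D2:**
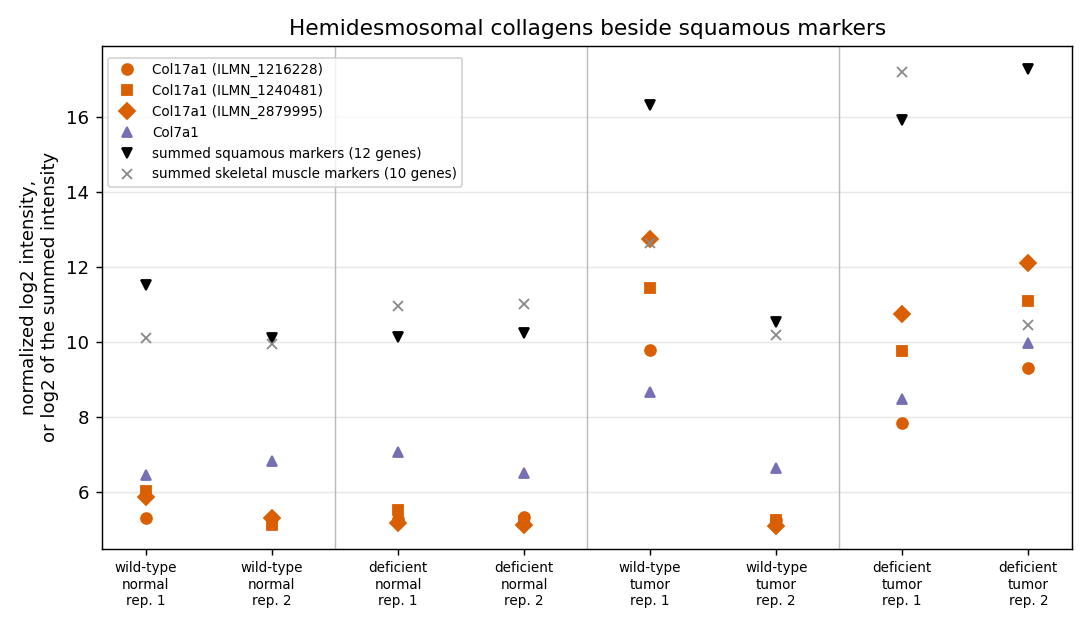
Normalized log2 intensity of the 3 tested Col17a1 probes and of Col7a1 on each of the 8 arrays, beside the log2 of the summed intensity of 12 squamous and 10 skeletal muscle markers (vertical axis). Col17a1 and the squamous sum were high on array 1 of the wild-type tumors and on both deficient tumor arrays, and low on array 2 of the wild-type tumors, whereas the skeletal muscle sum was highest on array 1 of the deficient tumors.

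Of the remaining classes, type VI collagen, which forms beaded filaments around cells, was not called: Col6a1 differed by 0.60 and 0.40 at its 2 probes and Col6a2 by 0.26. Col16a1, a fibril-associated collagen, read 10.85 and 10.43 in deficient normal colon, 11.41 and 12.03 in deficient tumors, 11.30 and 11.35 in normal colon of wild-type mice and 12.18 and 11.71 in wild-type tumors. It rose by 1.08 in deficient tumors (SE 0.30, adjusted p = 0.0429), with tumor and normal arrays apart in both genotypes, and lost the call under 8 of 17 alternatives. Col9a2, a fibril-associated chain best known from cartilage, was below background in deficient normal colon and at least 1.97-fold higher in deficient tumors, which did not pass (adjusted p = 0.0521). Col14a1 differed by -0.89 (adjusted p = 0.174). Col23a1, a transmembrane collagen, differed by -0.57 (adjusted p = 0.166). Col28a1 was below background on both deficient normal arrays and on array 1 of the deficient tumors. Its fitted difference of -0.59 (adjusted p = 0.293) is thus neither a measured size nor a measured direction.

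Genes that process, bind or anchor collagens were counted from lists in the same comparison, in which 8.70% of all probes rose and 10.7% fell. Of 18 tested processing and cross-linking enzymes, 3 rose and 1 fell (median log2 difference 0.30), a share of 22.2% that is near the 19.4% of all probes. Bmp1, which removes the C-terminal propeptide of fibrillar procollagens, rose by 1.24 (adjusted p = 0.0142) and Colgalt1, a collagen galactosyltransferase, by 1.06 (adjusted p = 0.0366), while P4ha1, a prolyl 4-hydroxylase subunit, fell by 1.32 (adjusted p = 0.0225). Loxl2, a cross-linking oxidase, rose at least 1.38-fold (adjusted p = 0.0402). Of 6 fibril partners, Thbs2 (1.94, adjusted p = 0.00966) and Sparc (1.47, adjusted p = 0.0363), matricellular proteins that bind collagen, rose and none fell.

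Of 10 basement membrane partners, 3 rose and none fell: the laminin chains Lama1 (2.63, adjusted p = 0.010), Lamb3 (1.18, adjusted p = 0.0270) and Lamc1 (1.06, adjusted p = 0.0248). Of 8 hemidesmosome partners, a list that shares Lamb3 with the former and Krt5 and Krt14 with the squamous markers, 3 rose (Krt14, Lamb3 and the integrin chain Itgb4, 1.49, adjusted p = 0.0413) and 1 fell (Dst, which encodes the plakin dystonin, -1.49, adjusted p = 0.0331). Of 5 collagen receptors, Itga11, the chain of a fibroblast integrin for type I collagen, fell by 1.69 (adjusted p = 0.00478) and the others were not called.

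Markers of cell types were counted in this comparison against the same shares of all probes. Of 10 fibroblast markers, Pdgfrb (1.26, adjusted p = 0.0112) and Vim (1.11, adjusted p = 0.0242) rose and Fap fell by 1.93 (adjusted p = 0.00846). Their summed intensity was 35505.6 and 41167.9 in deficient normal colon, 39775 and 61381.6 in deficient tumors, 25113.4 and 26815.1 in wild-type normal colon, and 61354.8 and 42403.4 in wild-type tumors. Of 9 endothelial and pericyte markers, Cdh5, Egfl7 and Esam rose and Rgs5 fell, with summed intensities of 6753.71 and 4978.3 in deficient normal colon and 7265.94 and 12470.2 in deficient tumors, against 4047.57 to 5524.66 on the wild-type arrays. Of 9 colon epithelium markers, Krt18 rose and Cdx2, Krt20 and Vil1 fell. None of 10 skeletal muscle markers passed, with a median log2 difference of 2.41 at the bounds and a sum of 150977 on array 1 of the deficient tumors against 1405.73 on array 2. The 1 tested glia marker (Mbp) and the 1 tested cartilage marker (Sox9) were not called. Whether these cells had a part in the collagen results was not tested.

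The wild-type tumors gave no call. At an adjusted p under 0.05, limma called 0 of 24 collagen probes and 0% of all 13327 probes, with 2 collagen probes and 1154 of all probes at an unadjusted p under 0.05. The collagen median was 0.51 (0.49 at the bounds), and the tumor and normal arrays did not overlap on 14 probes (12 higher, 2 lower), against 45.7% of all probes (22.4% higher, 23.3% lower). Col4a1 differed by 0.53 (adjusted p = 0.568), Col18a1 by 0.12 (adjusted p = 0.892), Col1a1 by 0.24 (adjusted p = 0.876) and Col7a1 by 1.01 (adjusted p = 0.625). Col17a1, below background in wild-type normal colon, was above background on array 1 of the wild-type tumors (12.75) and below it on array 2. Its mean difference therefore has no lower bound (adjusted p = 0.591). Col4a5, also below background in that normal colon, was at least 1.36-fold higher (unadjusted p = 0.0185, adjusted p = 0.518), opposite to its direction in deficient tumors. The absence of collagen calls depended on keeping array 2 of the wild-type tumors, and without array 1 Col17a1 was below background in both groups.

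**Figure D3:**
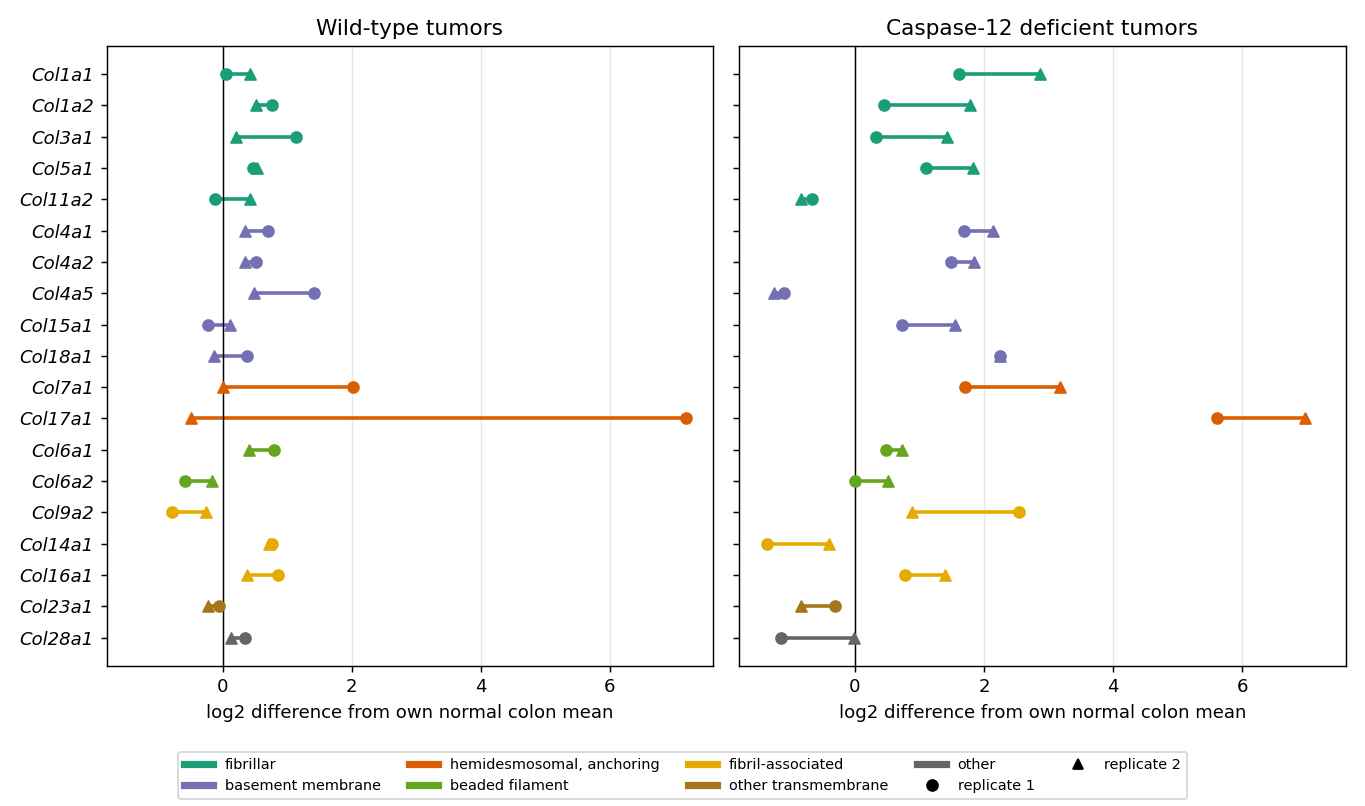
Log2 difference of each tumor array from the mean of the 2 normal arrays of its own genotype (horizontal axis), for the brightest tested probe of each of 19 collagen genes, coloured by class. Circles are array 1 and triangles array 2. Col17a1, Col9a2 and Col28a1 were below background in normal colon of both genotypes, and Col4a5 and Col11a2 in that of wild-type mice. Distances from those means are not measured sizes. In deficient tumors array 2 lay above array 1 for 14 of the 19 genes, and in wild-type tumors array 1 lay above array 2 for 13.

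With both genotypes fitted together, the tumor difference called 0 of 24 collagen probes, against 0.0525% of all probes. At an unadjusted p under 0.05 there were 14 collagen probes and 3198 of all probes, and the collagen median was 0.86. Here too the absence of collagen calls depended on keeping array 2 of the wild-type tumors.

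The comparison of tumors between genotypes asks which collagens distinguished deficient from wild-type tumors. It uses the same deficient tumor arrays as the comparison above. Of 24 collagen probes 4 were higher and 1 lower in deficient tumors, against 7.60% of all probes higher and 10.9% lower. The share called in either direction was 20.8% of collagen probes, which is near the 18.5% of all probes. The collagen median was 0.35 and that of all probes -0.02, and the arrays of the genotypes did not overlap on 11 probes (7 higher, 4 lower) against 60.2% of all probes (28.0% higher, 32.3% lower). The calls lay in the basement membrane class and in Col9a2, which met the filter for testing only through its deficient tumor arrays. The class medians were 1.12 for basement membrane, 0.01 for fibrillar and 1.84 for hemidesmosomal and anchoring probes, the last of these turning to -1.11 without array 2 of the wild-type tumors, while the fibrillar median was 0.51 without array 1 of the deficient tumors.

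Col18a1 was higher by 1.50 (SE 0.28, 2.83-fold, adjusted p = 0.0135) and by 1.51 at the other probe (SE 0.32, adjusted p = 0.0200). Col4a1 was higher by 1.46 (SE 0.26, 2.76-fold, adjusted p = 0.0118). Without array 2 of the wild-type tumors these calls were lost, with Col4a1 at 1.28 and Col18a1 at 1.23, and those of Col18a1 also without array 1 of the deficient tumors and, at its other probe, without array 2. Col4a2 was not called (0.78, SE 0.36, adjusted p = 0.174). Col4a5 was at least 1.81-fold lower in deficient tumors (-1.31, SE 0.32, adjusted p = 0.0300), a call lost under 8 of 16 alternatives.

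Col9a2 read 8.62 and 6.97 in deficient tumors and was below background on the other 6 arrays, at 6.68 and 6.31 in normal colon of wild-type mice, 5.88 and 6.28 in deficient normal colon and 5.71 and 6.23 in wild-type tumors. Array 1 of the deficient tumors was thus well above array 2. Col9a2 was at least 2.38-fold higher in deficient than in wild-type tumors (1.82, SE 0.51, adjusted p = 0.0447). It passed under only 2 of the 14 alternatives in which it was tested. Col9a2 met the filter for testing only through the deficient tumor arrays, the group then tested as higher, so its p-value is not independent of that choice. Of the 6 cartilage markers on the array, 5 (Acan, Comp, Hapln1, Matn1 and Matn3) were above background on no array, and Sox9 was above it on all 8, normal colon included. Array 1 of the deficient tumors was also the array with the skeletal muscle sum of 150977, whose part in the Col9a2 result was not tested.

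No fibrillar gene was called between the tumors of the genotypes. The differences were 0.49 for Col1a1 (SE 0.48, adjusted p = 0.506), 0.13 for Col1a2 (SE 0.40, adjusted p = 0.850), -0.11 for Col3a1 (SE 0.42, adjusted p = 0.881) and 0.21 for Col5a1 (SE 0.32, adjusted p = 0.690), each with overlapping arrays. Those for Col1a1 and Col1a2 turned sign without array 2 of the deficient tumors, and that for Col3a1 without array 1 of either tumor group. Col17a1 differed by 2.51 (SE 2.02, adjusted p = 0.417) and Col7a1 by 1.58 (SE 0.70, adjusted p = 0.153), with overlapping arrays for both.

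In the same comparison, Lama1 was higher by 2.77 (adjusted p = 0.0105), Lama2 lower by 1.43 on the log2 scale (difference -1.43, adjusted p = 0.0155), Thbs2 higher by 1.80 (adjusted p = 0.0151) and Itga11 lower (-0.997, adjusted p = 0.0310). Of 18 processing enzymes and 8 hemidesmosome partners none was called. The counts of called list members here stand against 7.60% of all probes higher and 10.9% lower. Among the cell markers, 3 of 9 endothelial markers were higher (Cdh5, Egfl7 and Esam) and none lower, 6 of 10 smooth muscle markers and 4 of 9 colon epithelium markers were lower and none higher, 1 of 10 fibroblast markers (Pdgfrb) was higher, and 2 of 12 squamous markers (Krtdap and Lor) were higher. The part of these differences in the Col4a1, Col18a1 and Col4a5 results was not tested.

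**Figure D4:**
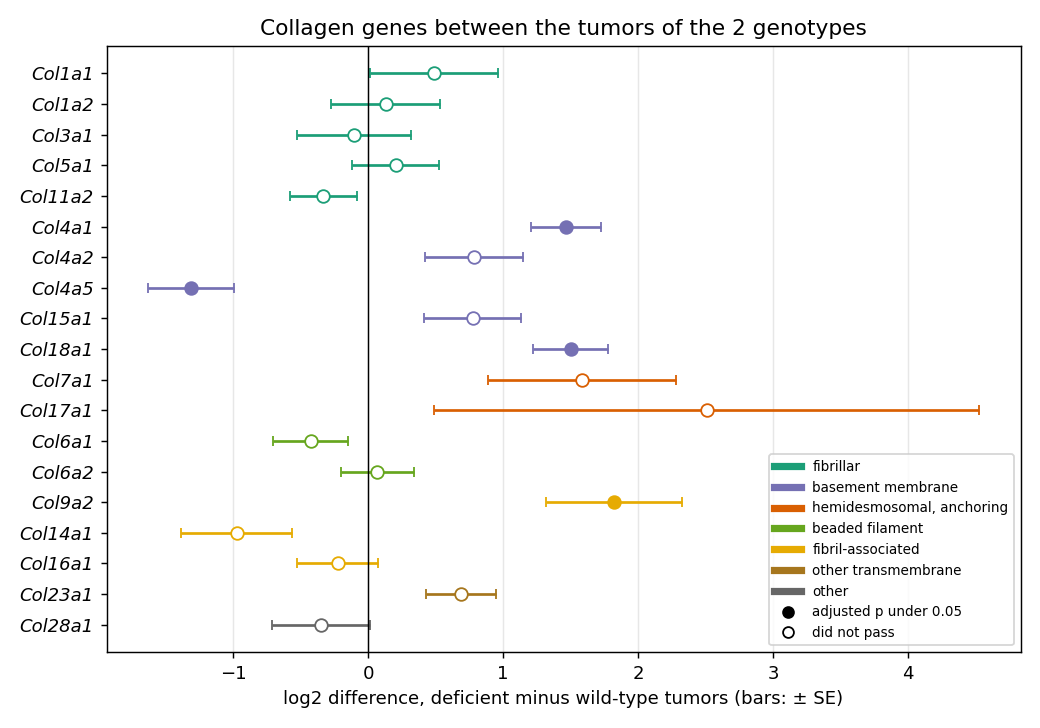
Log2 difference between deficient and wild-type tumors (horizontal axis, bars ± SE, 2 arrays per group) for the brightest tested probe of each collagen gene, coloured by class, filled where the adjusted p was under 0.05. Col4a1, Col18a1 and Col9a2 were higher and Col4a5 lower, and the fibrillar genes lay around 0.

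Normal colon of the genotypes gave 0 of 24 collagen probes at an adjusted p under 0.05 in limma, against 2.19% of all probes, with 5 collagen probes and 2367 of all probes at an unadjusted p under 0.05. The collagen median was -0.38 (-0.16 at the bounds), and the arrays did not overlap on 14 probes (4 higher, 10 lower in deficient mice) against 55.1% of all probes (28.5% higher, 26.5% lower). The lowest and highest differences were -1.51 for Col1a1 (SE 0.48, adjusted p = 0.159) and 1.12 for Col23a1 (SE 0.26, adjusted p = 0.0810). Col1a1 read low on both deficient normal arrays, which also enter its tumor difference in deficient mice. Col23a1 read 8.09 and 8.11 in deficient normal colon and 7.17 and 6.80 in wild-type normal colon, with no overlap.

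The interaction tests whether the tumor difference itself differed between genotypes. Of 24 collagen probes 1 was positive and 1 negative at an adjusted p under 0.05, against 3.91% of all probes called (1.55% positive, 2.36% negative). The tumor difference of Col18a1 was larger in deficient mice by 2.13 (SE 0.39, adjusted p = 0.0336), but the other probe, at 2.01, did not pass (adjusted p = 0.0566), and the call was lost under 7 of 17 alternatives. That of Col4a5 was -2.13 (SE 0.45, adjusted p = 0.0470), and since Col4a5 was below background in normal colon of wild-type mice and in deficient tumors, this value rests on 2 groups with only an upper limit. It passed under only 2 of 16 alternatives. Col4a1 (1.38, adjusted p = 0.0861), Col1a1 (2.00, adjusted p = 0.146) and Col17a1 (adjusted p = 0.611, with both normal groups below background) did not pass, so the calls of Col4a1 and Col1a1 in deficient mice, with none in wild-type mice, do not show a difference between the genotypes.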

How the data were processed

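Per the labels, 8 arrays fell into 4 groups of 2. The deposited matrix gave each probe an intensity with its detection p-value, per the file headers, and was made with BeadStudio 3.2.7 per the submitters' processing notes. A deposited series table of log2 values equalled, within 1.7e-05, log2 intensity over the array mean, and served as an alternative. Symbols came from the platform's annotation: 23978 probes had 1 symbol, 0 several and 1719 none.

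Intensities were normalized with neqc (offset 16) in limma 3.58.1 under R 4.3.3. The 13327 probes with detection p under 0.01 on at least 2 arrays were tested in a limma model of the group means (additive for both genotypes together; 4 residual and 3.55 prior degrees of freedom), two-sided, with Benjamini-Hochberg adjustment over all of them and a threshold of 0.05; the procedure was tested on simulated data. For "at least" folds, each array of the lower group was set to the higher of its own value and its lowest signal above background. The higher group kept its own values. A gene is shown by its brightest tested probe. Summed intensities are sums of 2 to the power of the log2 values over a list's tested genes.

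Members and lists were chosen with earlier results of these data known. Array values are given for called members and for Col1a1, Col1a2, Col3a1, Col4a1, Col4a2, Col7a1, Col17a1 and Col18a1, others by the highest and lowest differences of their class, and listed partners by up to 4 of the largest called differences in deficient tumors. The alternatives were background correction, offset, normalization, series values, filters, array weights, a replicate block and leaving out each array.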

Additional observations from a re-analysis of the deposited data

Results flagged for a closer look

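The tumor difference of 2 collagen genes differed between the genotypes by the interaction term. For Col18a1 the interaction was 2.13 log2 units (SE 0.39, adjusted p = 0.0336): both deficient tumor arrays lay above their normal arrays, while wild-type tumor and normal arrays overlapped. The other Col18a1 probe did not pass (adjusted p = 0.0566), and the call was lost under 7 of 17 alternatives. For Col4a5 it was -2.13 (SE 0.45, adjusted p = 0.0470), with tumor arrays below normal arrays in deficient mice and above them in wild-type mice. Wild-type normal colon and deficient tumors were below background at this probe, and the call held under only 2 of 16 alternatives.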

How the results depend on the processing

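Over 17 alternatives, called differences of single members kept their direction in all 262 cases and their call in 182, while 80 lost it. Col4a1 (1.64 to 2.15) and the brighter Col18a1 probe (1.98 to 2.45) in deficient tumors passed under every alternative, while the calls were lost under 14 of 16 alternatives for the Col4a5 interaction, 7 of 17 for the Col18a1 interaction, 12 of 14 for Col9a2 between tumors, 11 of 16 for Col4a5, 8 of 16 for Col7a1 and 8 of 17 for Col16a1 in deficient tumors, and 8 of 16 for Col4a5 between tumors. Leaving out 1 array at a time, the collagen calls ranged from 2 to 13 in deficient tumors (2 without array 2 of the deficient normal colon, 4 without array 2 of the deficient tumors), 0 to 3 in wild-type tumors, 1 to 7 between tumors, 0 to 3 for the interaction and 0 to 6 with both genotypes together. Between tumors, 3 collagen probes were called with no background correction, with the deposited series values and with no filter on dim probes. Among probes above background on all 8 arrays 2 were called. The interaction called 1 with cyclic loess, median scaling, an offset of 50, no background correction, the series values, all 8 arrays above background or the replicate block, and 0 with no filter. In normal colon 1 was called with array weights. The shares of all probes called under these settings are not given here, so the counts describe no change particular to collagens. Median scaling moved the median of all probes to -0.10 for tumors against normal colon in deficient and -0.13 in wild-type mice, and the series values to 0.11 and 0.12.

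The replicate numbers are shared between groups, and the labels do not say what they mark. The correlation of the replicate differences between groups was -0.03 to 0.16, highest between normal colon and tumors of deficient mice. Such correlations cannot settle whether arrays were paired. With the replicate block 7 collagen probes were called in deficient tumors, 4 between tumors, 0 in wild-type tumors and 0 in normal colon.

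Uncalled differences turned sign in 19 cases. With median scaling, Col18a1 went to -0.15 in wild-type tumors and Col4a1 to -0.011 in normal colon. The others came from leaving out 1 array at a time. Those of Col17a1 in wild-type tumors and for the interaction involve normal colon below background, and wild-type tumor array 2 was also below it, so those sizes are not measured, nor is the sign in wild-type tumors without array 1, where both groups were below background. In wild-type tumors the ranges were -0.14 to 0.38 for Col18a1, -0.0015 to 2.02 for Col7a1 and -0.47 to 7.17 for Col17a1. In normal colon they were -0.088 to 0.25 for Col4a1, -0.92 to 0.011 for Col4a2 and -0.13 to 0.43 for Col7a1. Between tumors they were -0.14 to 1.13 for Col1a1, -0.54 to 0.81 for Col1a2, -0.66 to 0.45 for Col3a1 and -1.32 to 6.33 for Col17a1. The 6.33 sets deficient tumors against wild-type tumor array 2 alone, which was below background, so that size is not measured either. For the interaction the ranges were -0.18 to 1.16 for Col1a2, -0.34 to 0.76 for Col3a1 and -0.87 to 6.75 for Col17a1. Apart from the fewer arrays or probes in some fits, the cause was not tested. Signal over background limits the 35 untested collagen probes.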
